A study of Mus musculus with 158 samples.

Results

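DNase I hypersensitive site (DHS) hotspots were examined at the loci of 10 genes for ETS-family transcription factors, Etv4, Ets1, Ets2, Elf1, Elf3, Elf5, Ehf, Erg, Fli1 and Gabpa. The members were given by name, and each locus was the mm10 gene body plus 20 kb on both sides. They were 10 of 21755 protein-coding genes on the autosomes and X chromosome, and all 10 were among the 21495 with a hotspot in that window in at least 1 adult set. The group had been described as ETS factors outside the B lineage. This description went against the data for Ets1 and, less firmly, Fli1, so the 10 are called here by their family name. Both loci had a higher mean of hotspot sequence in B cells than in the other tissues. For Fli1 the difference no longer passed the test in 6 of 13 alternative settings, and kidney and lung overlapped the B cell range. Elf1 also had its highest mean in B cells, but the difference did not pass the test. As a share of each set's hotspot sequence, Elf1 did pass it.

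The adult samples came from F1 mice born to C57BL/6J (B6) mothers and sired by males of SPRET/EiJ, PWK/PhJ, CAST/EiJ, C3H/HeJ or, for B6x129, a substrain whose name is spelled differently across the sources, giving the hybrids B6x129, B6xC3H, B6xCAST, B6xPWK and B6xSPRET. Every group therefore carried 1 B6 genome, no group had a transgene or a treatment, and hybrids differed by their sire. The B6x129 and B6xC3H mice were bought and the others bred on site, and all were killed at 8 weeks. Whole liver, both kidneys, lungs and B cells were profiled by DNase-seq. The B cells were isolated from femoral bone marrow of females by depleting cells that bear CD43 or Mac-1/CD11b, so that any cell type lacking both could stay. The submitters pooled the 138 libraries, 2 to 14 per combination, into 1 hotspot set for each of the 5 hybrids in each of the 4 tissues, 20 adult sets in all. Cultured B6xCAST embryonic stem cells (mESC) added 1 DNase-seq hotspot set, which is listed under 1 of their 2 DNase-seq libraries. They also added 1 set of CTCF ChIP-seq hotspots from 1 library, so neither has a replicate set. The 5 hybrids served as the repeats of a tissue, and the spread between them holds both strain differences and differences between pooled libraries. In the permutation tests tissue labels were exchanged within hybrids. Their p-values thus set a tissue's difference against the spread among tissues inside the hybrids. To compare hybrids, labels were exchanged within tissues instead.

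ETS factors share a winged helix-turn-helix domain that binds a GGAA core, and binding is read on the opposite strand as TTCC. The family includes factors found in nearly every cell, such as Gabpa, which acts at the promoters of housekeeping and mitochondrial genes, factors of blood and vessel cells such as Ets1, Fli1 and Erg, and factors of epithelia such as Elf3, Elf5 and Ehf. Because so many members can read the same core, which of them is accessible in a given tissue is part of the context in which variation at an ETS site is interpreted.

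The sets differed in size. Liver sets covered 78.4 to 128.8 Mb of the genome, kidney sets 63.6 to 85.2 Mb, lung sets 43.8 to 97.03 Mb and B cell sets 29.0 to 68.7 Mb. The number of hotspots ran from 78387 to 295565 per set. Starts of 5 of 5 hepatocyte markers lay in a hotspot in every liver set and in no B cell set, 5 of 5 lung epithelium markers did so in every lung set, 4 of 5 kidney tubule markers in every kidney set and 5 of 5 B cell markers in every B cell set. Markers of other cell types also had hotspots: 5 of 5 B cell markers and 4 of 4 T cell markers had a start in one in at least 1 lung set. So did 4 of 4 stem cell markers, and whether such cells were present was not tested. The summed hotspot length at the B cell marker loci was 12596 to 34882 bp in lung and 38512 to 95108 bp in B cells. In liver it was 16215 to 38320 bp and in kidney 20153 to 27243 bp. In B cells 2 of 5 endothelial markers (Pecam1 and Kdr) had a hotspot at the start in all 5 sets while Cdh5, Tie1 and Tek had none, and 3 of 5 epithelial markers (Cdh1, Epcam and Esrp1) had one in at least 1 set while Cldn4 and Krt8 had none. The summed hotspot length in B cells was 9955 to 25169 bp at the endothelial and 9986 to 23634 bp at the epithelial marker loci, against 21041 to 51539 bp and 21162 to 46185 bp in lung. In such bulk sets, a smaller number of cells of a type and weaker accessibility in each cell cannot be told apart.

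Sequence at the members is shown first, with the GGAA or TTCC cores in capitals, because these are the letters that ETS factors read. The examples were chosen after their values were seen. Promoter sequence is the 250 bases before the start (RefSeq, GRCm38), written on the strand of the gene. Gabpa (chr16:84834874-84835123, + strand) and the second Elf1 start (chr14:79515424-79515673, + strand) stand for starts with a hotspot in all 20 adult sets. Elf3 (chr1:135258473-135258722, - strand) stands for a start with hotspots within 250 bp in the 3 solid tissues and none in B cells. The second Elf5 start (chr2:103423818-103424067, + strand) stands for one with a hotspot in all 5 lung sets and in 1 kidney set. The last sequence is the 273 bp shared by the 5 B cell sets in an Ets1 intron (chr9:32720151-32720423, + strand).
Gabpa: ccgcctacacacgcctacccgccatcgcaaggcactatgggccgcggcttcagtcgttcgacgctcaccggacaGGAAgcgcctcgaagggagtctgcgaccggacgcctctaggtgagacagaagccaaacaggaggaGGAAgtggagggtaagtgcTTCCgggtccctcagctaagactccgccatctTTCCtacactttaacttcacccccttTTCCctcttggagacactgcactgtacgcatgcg
Elf1 second start: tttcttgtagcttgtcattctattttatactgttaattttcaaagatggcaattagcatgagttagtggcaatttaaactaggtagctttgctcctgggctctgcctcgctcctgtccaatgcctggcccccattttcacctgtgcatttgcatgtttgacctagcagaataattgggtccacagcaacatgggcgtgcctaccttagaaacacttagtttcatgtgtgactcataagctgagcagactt
Elf3: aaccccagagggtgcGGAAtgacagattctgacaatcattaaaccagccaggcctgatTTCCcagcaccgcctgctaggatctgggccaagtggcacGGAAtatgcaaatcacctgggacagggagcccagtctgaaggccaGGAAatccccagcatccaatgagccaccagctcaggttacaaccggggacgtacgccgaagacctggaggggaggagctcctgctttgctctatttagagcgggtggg
Elf5 second start: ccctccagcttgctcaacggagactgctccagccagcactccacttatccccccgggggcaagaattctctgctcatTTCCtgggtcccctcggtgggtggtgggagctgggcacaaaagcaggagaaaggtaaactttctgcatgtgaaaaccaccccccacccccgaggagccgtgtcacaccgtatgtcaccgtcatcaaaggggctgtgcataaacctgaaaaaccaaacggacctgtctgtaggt
Ets1 B cell element: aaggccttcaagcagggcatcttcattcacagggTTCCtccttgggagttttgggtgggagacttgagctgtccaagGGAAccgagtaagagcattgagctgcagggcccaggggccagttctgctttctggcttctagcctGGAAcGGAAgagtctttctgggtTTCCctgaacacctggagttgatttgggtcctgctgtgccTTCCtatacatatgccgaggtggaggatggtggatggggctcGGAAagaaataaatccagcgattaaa

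These printed promoters differed in their content of cores and CpG. The 250 bases before Gabpa held 5 cores and 19 CpG dinucleotides, and those before Elf3 held 4 cores and 8 CpG. Those before the second Elf5 start held 1 core and 8 CpG, and those before the second Elf1 start 0 cores and 2 CpG. With the 50 bases after the start included, the cores were 5, 4, 1 and 1 in this order and the CpG 22, 12, 10 and 3. Over all 32851 promoters of 300 bases the medians were 3 cores and 7 CpG. The Ets1 element held 7 cores in its 273 bp. Longer ETS motifs were searched as well. Of the 10 promoter entries that matched 6 of the 10 genes (250 bases before to 50 after the start), only Gabpa held AGGAAGT and none held CCGGAAGT on either strand, against 9.35% and 3.89% of all 32851 promoters of 300 bases, which 1 and 0 of 10 do not set apart. CCGGAAGT does not contain AGGAAGT, and both contain the core. In the central 300 bp of the 543 hotspot elements at the 10 loci, AGGAAGT was present in 14.2% against 10.7% of all elements and CCGGAAGT in 0.737%, or 4 elements, against 0.426%.

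The first question was which loci carried more or less hotspot sequence in 1 tissue than in the others. The measure was the number of base pairs (bp) covered by hotspots in the window, and each tissue's 5 sets were compared with the other 15 by a two-sided exact permutation test within hybrids, adjusted over all 21495 genes by the Benjamini-Hochberg method, with a call at an adjusted p of at most 0.05. Most calls fell in B cells. Of the 10, Ets1 and Fli1 were called higher in B cells and Etv4, Ets2, Elf3, Ehf and Gabpa lower, while over all genes 4.9% were called higher and 23.4% lower. In liver, Etv4 and Elf5 were called higher and Fli1 lower, against 37.7% and 1.48% of all genes. In kidney, Ehf was called higher and no member lower, against 6.31% and 0.656%. In lung 0 members were called by this test, as were 0% of all genes in either direction; at an unadjusted p of at most 0.05 the lung test held 16.4% of all genes and 0 members, and limma called 1 member, Elf3, higher and none lower, against 11.8% and 20.7% of all genes. The median difference over the 10 members was -2144 bp in B cells, -265 bp in liver, 870 bp in kidney and -21.8 bp in lung, and over all genes it was -870, 694, 12.5 and -318 bp.

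By the number of hotspots, which does not weigh their width, 1 member was called higher in B cells (Ets1) and 5 lower (Etv4, Elf3, Elf5, Erg and Gabpa), against 1.73% and 43.8% of all genes. As a share of the set's hotspots these were 29.8% and 12.4%, with Ets1, Elf1 and Fli1 higher and Etv4, Elf3 and Elf5 lower. The Erg call was lost in 4 of 10 alternatives and the direction turned in 2. In liver Elf5 was called higher and Fli1 lower, against 23.6% and 0.693%. In kidney 0 members were called by the exact permutation test, against 4.15% of all genes higher and 0.702% lower, and in lung 0, against 2.13% and 0.0419%. At an unadjusted p of at most 0.05 there were 2 of 10 members in each of these tissues, near the 19.0% of all genes in kidney and 15.7% in lung.

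**Figure D1:**
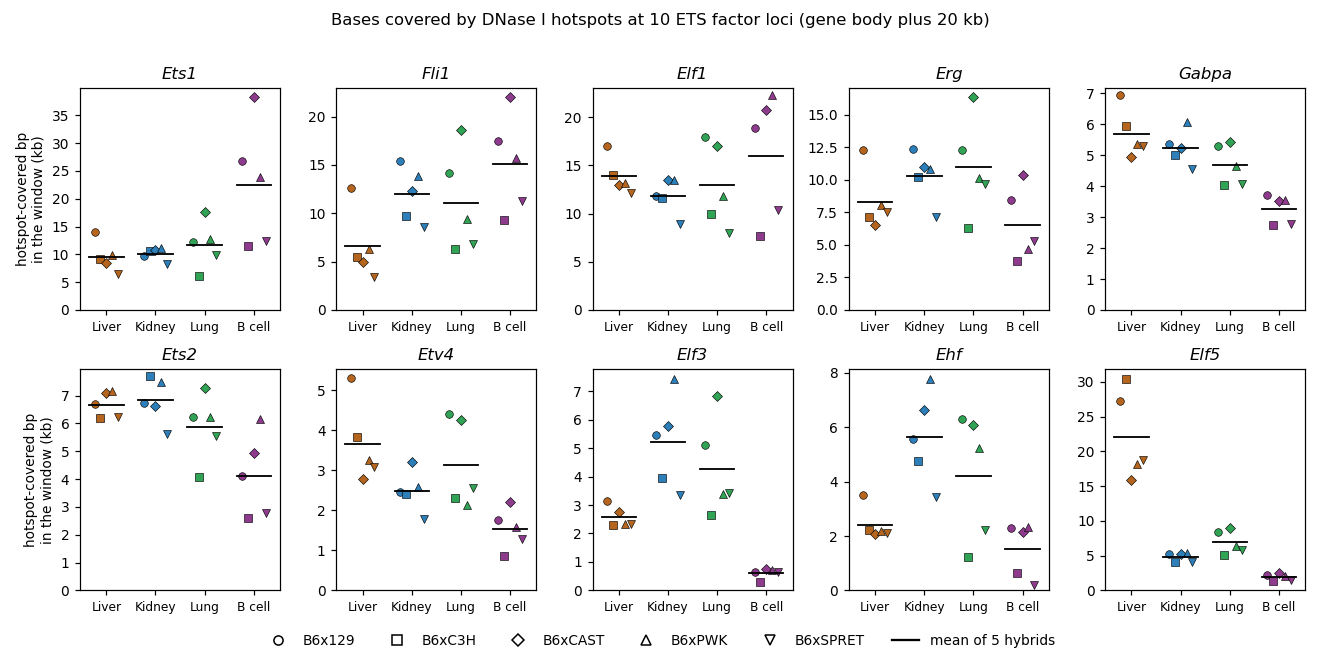
Hotspot sequence at the 10 ETS factor loci by tissue. Each panel is 1 gene, the y axis is kb covered by hotspots in the gene body plus 20 kb on both sides (linear from 0, with its own range in each panel), points are the 5 hybrids and the line is their mean. Elf5 in liver (15854 to 30430 bp) lies above all its other sets, and Elf3 in B cells (307 to 736 bp) below all of its others.

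Among the blood and vessel factors, Ets1, which is needed for lymphocyte development, had the largest excess in B cells. Its locus (ENSMUSG00000032035.15, chr9:32636221-32757820, + strand) had 26779, 11492, 38227, 23854 and 12316 bp in the B cell sets of B6x129, B6xC3H, B6xCAST, B6xPWK and B6xSPRET, the order used for all sets of 5 values below. The lung sets had 12232, 6039, 17534, 12773 and 9794 bp. All 5 hybrids were higher in B cells than in their own lung, but the 2 lowest B cell values, from B6xC3H and B6xSPRET, were below the highest lung value, so the ranges overlapped. Kidney had 8234 to 11225 bp and liver 6502 to 14005 bp. The B cell mean was 22534 ± 11095 bp (SD, n = 5 hybrids) against 10457 bp over the other 15 sets, a ratio of 2.15, and was higher in 5 of 5 hybrids (exact permutation test, adjusted p = 0.00825). The number of hotspots was also higher, at 49.8 ± 17.1 in B cells against 30 elsewhere (adjusted p = 0.00535, exact permutation test). Lung, kidney and liver means of 11674, 10104 and 9592 bp had overlapping ranges.

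Fli1, a factor of megakaryocytes and endothelium that is also present in lymphocytes, lies next to Ets1 on chromosome 9, with 93.4 kb between the gene bodies and no overlap of the windows. At this locus (ENSMUSG00000016087.13, chr9:32422204-32542861, - strand) the B cell sets had 17499, 9255, 21985, 15739 and 11223 bp. The liver sets had 12613, 5486, 4971, 6307 and 3434 bp, each the lowest of its hybrid's 4 tissues. Kidney (8557 to 15445 bp) and lung (6297 to 18565 bp) lay across the B cell range. In liver the mean was 6562 ± 3541 bp against 12728 bp elsewhere, a ratio of 0.516, and 5 of 5 hybrids were lower (exact permutation test, adjusted p = 0.00472), a call that was lost with only the 75000 highest-scoring hotspots of each set. In B cells the mean was 15140 ± 5068 bp against 9868 bp, a ratio of 1.53, higher in 5 of 5 hybrids (exact permutation test, adjusted p = 0.0335). That B cell call was lost whenever any 1 hybrid was left out, with 4079 to 6072 bp of excess left; the test then has 256 arrangements in place of 1024.

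Elf1, a factor with many lymphoid targets, and Erg, a factor of vessels and blood stem cells, were not called in any tissue by the exact permutation test of bp covered. Elf1 (chr14:79481194-79582494, + strand) had 18863, 7691, 20725, 22277 and 10418 bp in B cells. Those values spanned the whole of its liver (12115 to 17059 bp), kidney (8973 to 13508 bp) and lung (8008 to 17991 bp) ranges, and the B cell ratio was 1.24 (exact permutation test, adjusted p = 0.150). Erg (chr16:95359169-95586593, - strand) had 3759 to 10394 bp in B cells, 6321 to 16410 bp in lung, 7130 to 12347 bp in kidney and 6531 to 12284 bp in liver. Its B cell mean of 6533 ± 2794 bp was lower than that of the other sets in 5 of 5 hybrids, with a ratio of 0.662 (exact permutation test, adjusted p = 0.0527). For Erg in B cells limma called the locus lower (log2 difference -0.63, adjusted p = 0.00224), as did the permutation test with 50 kb on both sides or without B6xCAST, and the 75000 highest-scoring hotspots called Erg lower in liver and Elf1 higher in B cells.

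Because B cell sets covered less of the genome, the bp were also divided by all bp of the set. In bp per Mb of hotspot sequence in the set, 35.9% of all genes were called higher in B cells and 15.1% lower, in place of 4.9% and 23.4%. On this scale Ets1 (445 against 132), Fli1 (313 against 124) and Elf1 (322 against 162) were called higher, each with no B cell set inside the range of the other 15 (exact permutation test, adjusted p = 0.0034 for each), and Elf3 was called lower (12.9 against 51.3). The direction turned for Ets2, Gabpa and Erg, whose B cell shares were 1.04, 1.08 and 1.07 times those elsewhere without a call, and Etv4, Ehf and Elf5 stayed lower without a call. In liver this scale called 15.1% of all genes higher and 11.1% lower, with Elf5 higher and Ets2, Erg, Fli1 and Gabpa lower, and in lung 6.02% and 3.02%, with Etv4 higher (45.8 against 33.7). In kidney 7.62% were called higher and 2.81% lower, with Ehf higher (70.7 against 37.4). Only Ets1, Fli1 and Elf3 were called in B cells, in 1 direction, on both scales.

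**Figure D2:**
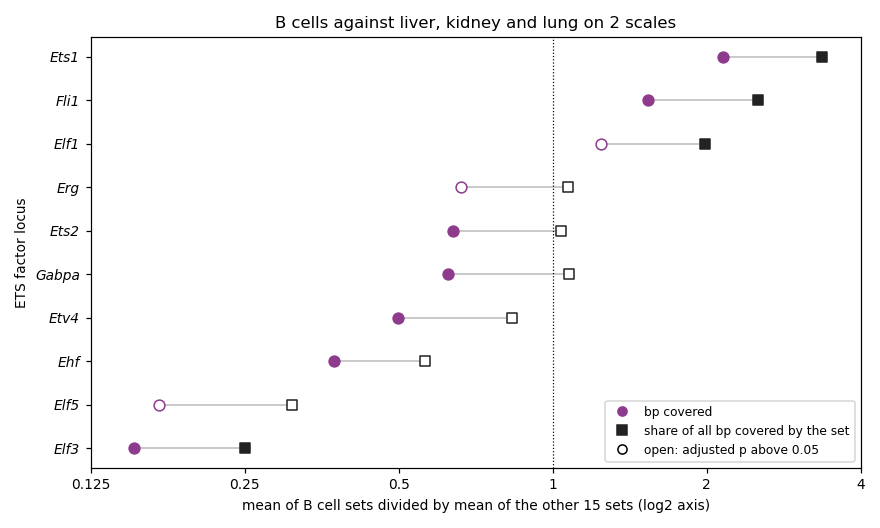
B cell level relative to the other tissues on both scales. The x axis (log2-spaced) is the mean of the 5 B cell sets divided by the mean of the other 15 sets for each of the 10 loci, circles use bp covered and squares use bp per Mb of hotspot sequence in the set, and open symbols have an adjusted p above 0.05. Ets1, Fli1 and Elf1 lie above 1 on both, Elf3 lies at 0.152 and 0.251, and Ets2, Gabpa and Erg cross 1 between the scales.

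Gabpa, the DNA-binding subunit of the GA-binding protein, had less hotspot sequence in B cells than in any other tissue. Its locus (ENSMUSG00000008976.16, chr16:84834925-84863779, + strand) had 3725, 2733, 3522, 3551 and 2771 bp in B cells, 5314, 4037, 5416, 4651 and 4065 bp in lung, and 4549 to 6952 bp in kidney and liver. No B cell value reached the lowest of the other 15, and the ratio was 0.625 (exact permutation test, adjusted p = 0.00825). Within the gene body the tissues were close: 1591 ± 65.0 bp in B cells, 1628 ± 66.5 bp in lung, 1915 ± 252 bp in kidney and 2001 ± 162 bp in liver, and the call was lost there and with the 75000 highest-scoring hotspots. Against liver and kidney the B cell deficit lay mostly upstream, at 1254 bp in B cells, 3022 bp in liver and 2531 bp in kidney. Against lung, with 1830 bp upstream, more of it lay downstream, at 415 bp in B cells and 1239 bp in lung. Jam2 and Atp5j overlap the window, and their bodies held 59.9% of the locus bp in B cells and 64.8% in liver. Without those bodies the B cell mean was still the lowest, at 1305 ± 196 bp. Liver had 1999 bp, kidney 2010 bp and lung 2166 bp, with overlap between the highest B cell set (1580 bp) and the lowest lung set (1555 bp). The B cell call stayed in 10 of 13 alternatives.

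Ets2, a factor downstream of Ras and MAP kinase signals, was lower in B cells with a mean of 4120 ± 1488 bp (2592 to 6141 bp) against 6454 bp, a ratio of 0.638 (exact permutation test, adjusted p = 0.00825, lower in 5 of 5 hybrids). The B6xPWK, B6xCAST and B6x129 B cell sets, at 6141, 4945 and 4127 bp, lay inside the range of the other tissues, whose lowest set had 4062 bp. The upstream 20 kb separated the tissues further: it held 2592 to 3745 bp in kidney and 1839 to 2271 bp in liver, against 353 to 880 bp in lung and 340 to 533 bp in B cells. Downstream the order changed, with 2224 ± 1308 bp in B cells and 583 ± 218 bp in kidney. Etv4, a factor of the PEA3 group with roles in branching of kidney and lung, had 1766, 866, 2214, 1582 and 1298 bp in B cells against 3093 bp elsewhere, a ratio of 0.4995 (adjusted p = 0.0133, exact permutation test), lost with the gene body only or the 75000 highest-scoring hotspots. Its liver sets had 5315, 3844, 2777, 3264 and 3089 bp, higher in 4 of 5 hybrids, with a ratio of 1.53 (exact permutation test, adjusted p = 0.0457). This liver call was lost without B6x129, B6xC3H, B6xPWK or B6xSPRET in turn and without the sequence shared with the neighbour Dhx8, where the difference fell from 1269 to 834 bp. It was lost in 9 of 13 alternatives in all, and per Mb of hotspot sequence the difference was 1.10 (exact permutation test, adjusted p = 0.877).

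Among the epithelial factors, Elf3 was nearly without hotspots in B cells. Its compact locus (ENSMUSG00000003051.13, chr1:135253575-135258568, - strand) had 646, 307, 736, 714 and 644 bp in B cells, all within the 20 kb upstream, and the gene body and the 20 kb downstream were at 0 in all 5 B cell sets. The kidney sets had 5464, 3952, 5783, 7425 and 3367 bp, the lung sets 2664 to 6819 bp and the liver sets 2297 to 3128 bp. B cells and liver did not overlap, and no B cell set reached the lowest of the 15 others. The ratio was 0.152 (exact permutation test, adjusted p = 0.00825). Kidney was higher in 5 of 5 hybrids with a ratio of 2.09, but was not called (exact permutation test, adjusted p = 0.113).

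Ehf, an epithelium-restricted relative of Elf3 (ENSMUSG00000012350.15, chr2:103263433-103303278, - strand), had 5552, 4754, 6637, 7768 and 3424 bp in kidney. The lung sets had 6300, 1227, 6095, 5241 and 2231 bp, and the B cell sets 2295, 657, 2139, 2323 and 216 bp. Kidney was higher than the mean of the other tissues in 5 of 5 hybrids, although its ranges overlapped those of lung and, for B6xSPRET, of liver (2086 to 3527 bp). The kidney ratio was 2.07 (exact permutation test, adjusted p = 0.0421) and the B cell ratio 0.373 (exact permutation test, adjusted p = 0.0460). Both calls were lost whenever any 1 hybrid was left out, with differences of 2499 to 3252 bp in kidney and -2685 to -2497 bp in B cells. In kidney no gene at all was called with a hybrid left out, so that loss is not particular to Ehf.

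Elf5, a factor of secretory epithelia, lies 108 kb from Ehf on chromosome 2 (ENSMUSG00000027186.14, chr2:103411688-103450989, + strand). Its liver sets had 27238, 30430, 15854, 18255 and 18765 bp. The lung sets had 8449, 5059, 9055, 6415 and 5814 bp, kidney 4032 to 5440 bp and B cells 1323 to 2469 bp. Neither liver nor B cells overlapped any other tissue. The liver mean of 22108 ± 6339 bp was 4.84 times that elsewhere (exact permutation test, adjusted p = 0.00472), while the B cell ratio of 0.170 was not called (adjusted p = 0.102, exact permutation test), although limma called it lower (log2 difference -2.13, adjusted p = 4.31e-11). Much of the liver sequence lay over the neighbour Cat, the catalase gene, which shares 17.1 kb of the window. The hotspots over Cat held 13019 ± 3150 bp in liver, 59.6% of the locus, against means of 2132 bp for kidney, 1856 bp for lung and 720 bp for B cells. In the rest of the window liver had 9089 ± 3499 bp (5390 to 14301), lung 5102 ± 1462 bp (3441 to 7081), kidney 2690 bp and B cells 1199 bp. The liver difference without Cat was 6092 bp, still a call (exact permutation test, adjusted p = 0.00826), with overlap between the lowest liver and the highest lung sets.

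**Figure D3:**
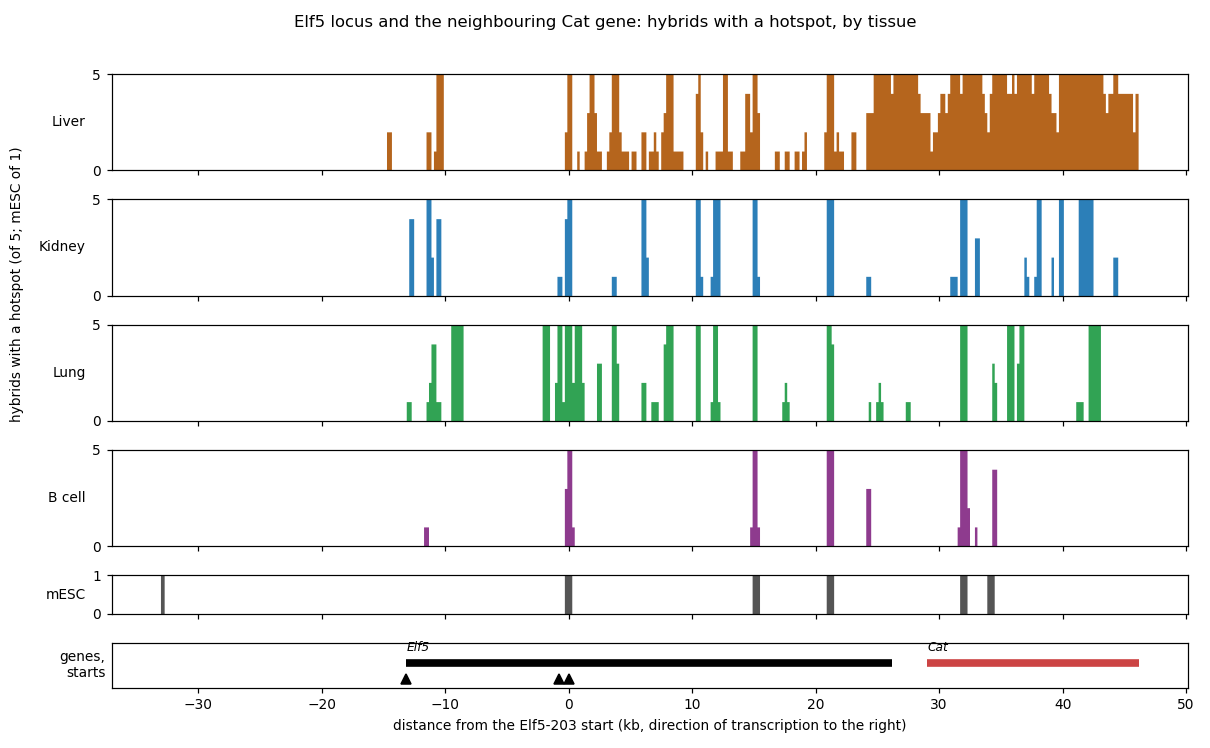
Hotspots along the Elf5 window. The x axis is the distance in kb from the third of the Elf5 starts, the y axis of each row is the number of the 5 hybrids of that tissue (of 1 for mESC) with a hotspot in each 200-bp bin, bars mark gene bodies with Cat in red, and triangles mark starts. Liver hotspots in all 5 hybrids fill much of the part shared with Cat, and a start of Elf5 has hotspots in every tissue.

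The second question was whether a hotspot lay at the start. GENCODE transcripts gave 22 separate starts in the 10 genes after joining those within 500 bp, and 7 genes had more than 1. A hotspot within 250 bp was found in all 20 adult sets at 8 starts, in no set at 3 and in some sets at 11. Over all coding genes, only the 5' end of the gene body was counted, without alternative starts. There the shares were 44.8% in all sets and 24.3% in none. At the 5' end of the members, Etv4, Ets2, Elf1 and Gabpa had a hotspot in all 20 sets. Etv4, Ets2, Elf1 at both starts, Fli1, Gabpa, the main Ets1 start and the third Elf5 start were the 8 present throughout. The 3 without any hotspot were alternative starts of Ets2, Ehf and Erg.

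The epithelial genes held the starts that varied most. Elf3 had a hotspot at its start in 15 of 15 solid-tissue sets, at 585 to 1406 bp wide, and in 0 of 5 B cell sets, a pattern shared by 474 of 21755 coding genes, or 2.18%. The second Elf5 start had one in 5 of 5 lung sets, 1 kidney set and no liver or B cell set, while the third start, less than 1 kb downstream, was present in all 20. The first Ehf start was present in 5 kidney, 5 lung, 3 B cell and 1 liver sets, and its last start (Ehf-202) in 5 kidney, 3 lung and 1 liver sets and no B cell set. In contrast, the Ehf-207 start had a hotspot in 4 B cell sets, 1 liver set and the mESC set and in no kidney or lung set.

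Starts of the blood and vessel factors also had tissue patterns. The upstream Ets1 start (Ets1-203) had a hotspot in 5 B cell, 5 kidney, 4 lung and 3 liver sets. The upstream Fli1 start had one in 5 B cell, 5 kidney, 2 lung and 1 liver sets. The fourth Erg start had one in 5 kidney, 5 lung, 4 liver and 2 B cell sets. Where a start was present everywhere, its width still varied: at the second Elf1 start B cell hotspots were 2504, 600, 2623, 5002 and 833 bp wide, against 250 to 714 bp in liver, 323 to 731 bp in kidney and 341 to 743 bp in lung. At the main Fli1 start they were 2135, 735, 2777, 2160 and 1873 bp wide in B cells, 650 to 1093 bp in kidney and 81 to 681 bp in liver, with lung reaching 1990 bp. The B6xC3H B cell hotspot was the narrowest of the 5 at both starts and lay inside the range of the other tissues. At Gabpa the hotspot was 1451 to 3270 bp wide and its score stood at the file's ceiling of 100 (-log10 FDR) in all 20 sets.

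**Figure D4:**
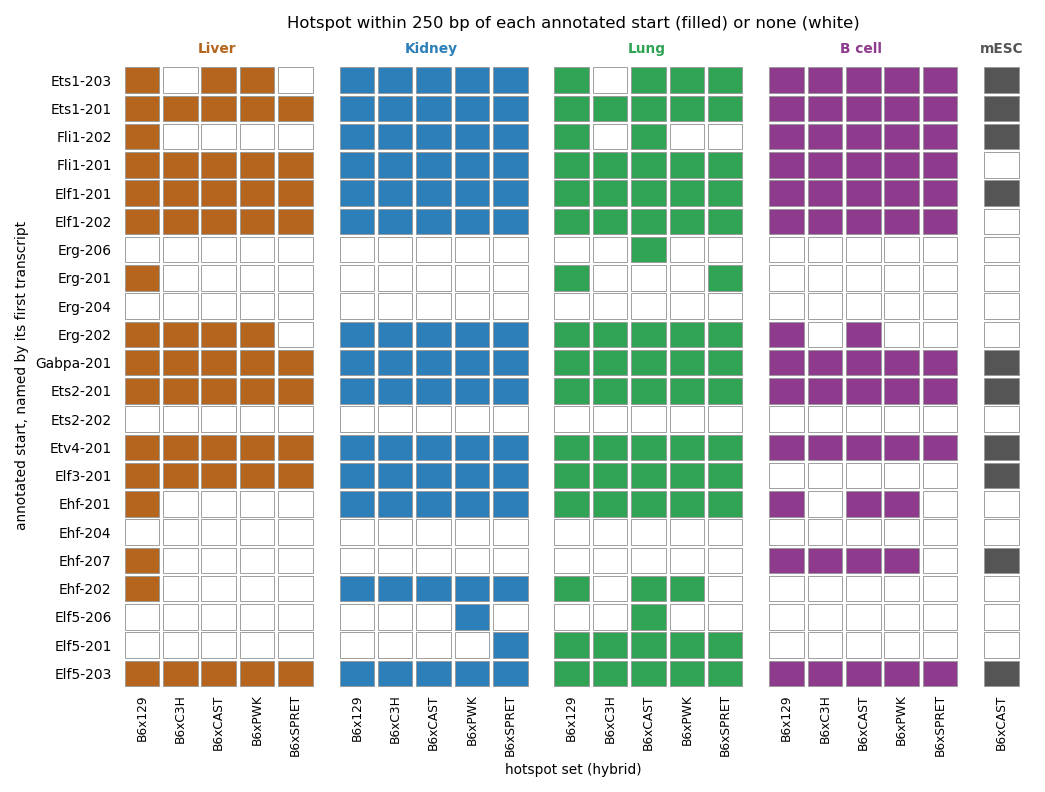
Presence of a hotspot within 250 bp of each start. Rows are the 22 starts of the 10 genes, columns are the 20 adult sets grouped by tissue plus the mESC set, and filled cells have a hotspot. The Elf3 row is filled in the 15 solid-tissue sets and empty in the 5 B cell sets.

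Hotspots of the 20 adult sets were next merged into elements, giving 543 at the 10 loci of 745754 in the genome. An element was called restricted to a tissue when all 5 hybrids had a hotspot in it and no set of another tissue did, a description without a test. B cells had 9 such elements at the 10 loci (1.66% against 0.334% of all elements), liver 12 (2.21% against 3.03%), kidney 9 (1.66% against 1.99%) and lung 7 (1.29% against 1.47%). Elements present in all 20 sets numbered 28 (5.16% against 3.77%), and 167 were seen in 1 set (30.8% against 42.2%).

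Of the 9 B cell elements, 5 lay in introns of Ets1, 2 at Elf1, 1 at Ets2 and 1 at Fli1. The Ets1 elements were 24.5 kb downstream of the upstream start and 24.2, 30.8, 44.1 and 49.2 kb downstream of the main start, and none had an mESC or CTCF hotspot. The widest, at chr9:32739793-32740518, had hotspots of 339 to 698 bp with scores of 10.8 to 100 (-log10 FDR). The weakest, at chr9:32745006-32745494, scored 1.86 to 11.7. The Elf1 elements were an intronic one at chr14:79552781-79553164 and one outside the gene at chr14:79585893-79586301. No epithelial factor had a B cell element. Kidney elements included 3 at Fli1, 2 at Erg and 1 at Ehf (chr2:103247958-103249009, outside the gene, hotspots of 418 to 919 bp). Lung elements included 2 at Elf5, both intronic, 4.05 kb after the first start and 1.09 kb before the second, 2 at Ehf and 2 at Erg.

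**Figure D5:**
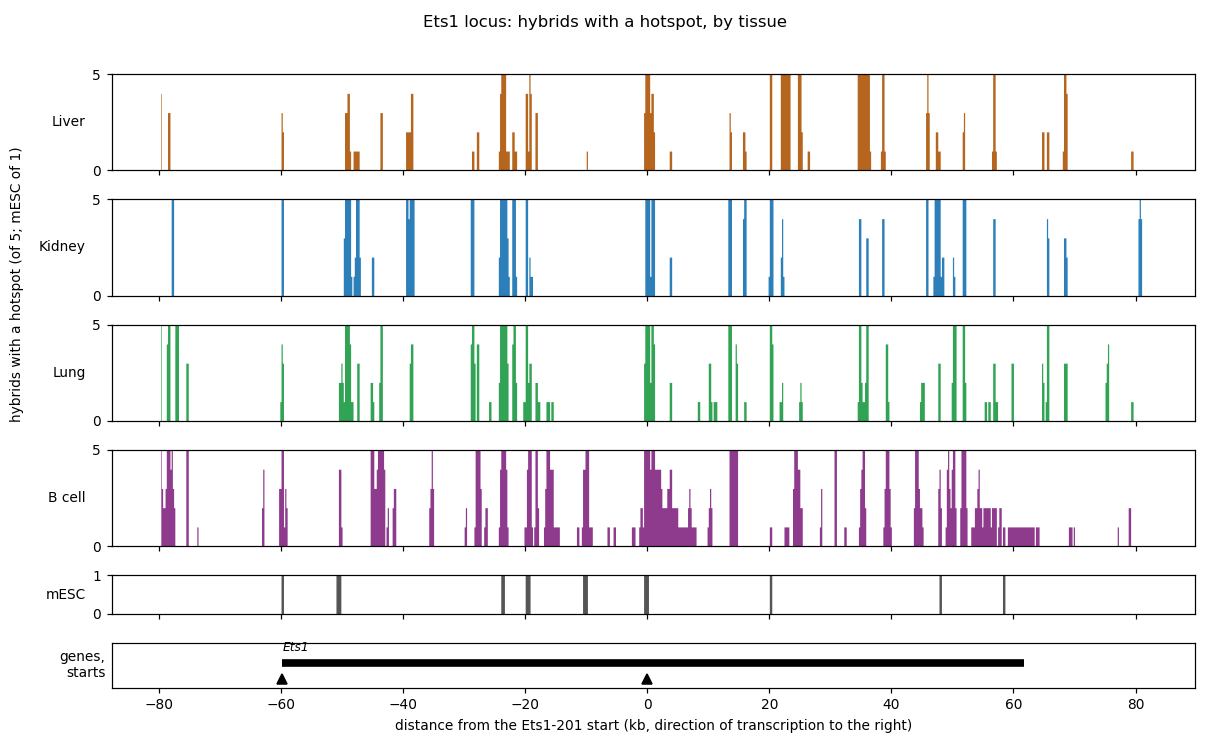
Hotspots along the Ets1 window. The x axis is the distance in kb from the main Ets1 start, the y axis of each row is the number of the 5 hybrids of that tissue (of 1 for mESC) with a hotspot in each 200-bp bin, the bar marks the gene body and triangles mark the 2 starts. B cell hotspots in all 5 hybrids lie in separate stretches of the introns downstream of the main start, including the restricted elements at 24.2, 30.8, 44.1 and 49.2 kb. Other tissues also have such stretches there, as liver does near 22.9 and 35.5 kb.

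Several restricted elements lay outside the blood factors. Elf5 held 2 liver elements, in introns at 1.91 and 12.7 kb from the third start, and both lie outside the Cat body. Etv4 held 3 liver elements, 2 of them over Dhx8 and 1 at an exon 15.2 kb from its start with scores of 65.6 to 100. A kidney element lay 1.52 kb upstream of Etv4. A lung element in an Ehf intron is shown because it held 6 GGAA or TTCC cores in the 274 bp shared by the 5 lung sets (chr2:103274847-103275120, + strand), beside 7 in the Ets1 B cell element printed above. A kidney element at Fli1 (265 bp) held 5 cores and a liver element at Erg (257 bp) held 1, and neither is printed. The number of cores in other elements of this length was not counted.
Ehf lung element: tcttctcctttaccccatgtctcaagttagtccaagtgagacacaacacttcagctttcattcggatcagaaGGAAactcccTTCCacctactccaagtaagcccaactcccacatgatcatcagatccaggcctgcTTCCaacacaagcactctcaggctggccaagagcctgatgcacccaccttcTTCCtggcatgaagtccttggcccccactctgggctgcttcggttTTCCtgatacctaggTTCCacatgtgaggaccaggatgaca

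There was 1 stem cell DNase-seq set, which was read beside the adult B6xCAST sets, without a test. It covered 42.4 Mb, against 68.7 to 97.03 Mb in those sets. Its hotspots covered 7527 bp at Fli1, 4713 bp at Elf1, 3411 bp at Ets1, 3245 bp at Erg, 2669 bp at Etv4, 2442 bp at Gabpa, 2333 bp at Ets2, 1943 bp at Elf3, 1865 bp at Elf5 and 1713 bp at Ehf. At Ets1, Ets2, Elf1, Elf5, Ehf, Erg and Gabpa the mESC value was below all 4 adult B6xCAST sets. At Etv4, Elf3 and Fli1 it lay within the adult range, at Fli1 between 4971 and 21985 bp. Of the 22 starts 10 had an mESC hotspot, among them Elf3, both Ets1 starts and Ehf-207. The main Fli1 start and the second Elf1 start had none although all 20 adult sets did. Over all coding genes 61.1% had an mESC hotspot at the 5' end of the gene body, a share without alternative starts. CTCF, an insulator protein, had 50 ChIP-seq hotspots at the 10 loci: 11 at Erg, 9 at Fli1 and 1 at Ehf. Of the 50, 42 overlapped an adult element, 19 an element present in all 20 sets and 27 an mESC DNase hotspot.

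The third question was whether hybrids differed, with tissues as the block. Of the 10 members 0 were called in any hybrid by bp covered (exact permutation test within tissues, smallest possible two-sided p = 0.0016, adjusted p 0.229 to 0.427 for those under 0.05 before adjustment), as were 0% of all genes, and limma called 0 members. At an unadjusted p of at most 0.05, B6xSPRET was lower at 4 members (Elf1, Ehf, Fli1 and Gabpa), B6x129 higher at 3 (Etv4, Fli1 and Gabpa) and B6xCAST higher at 1 (Ets1), with 0 in B6xC3H and B6xPWK. Over all genes 17.8% in B6xSPRET, 21.6% in B6x129 and 11.5% in B6xCAST were under that level in either direction, with median differences of -807, 787 and 538 bp. The difference was positive at 10 of 10 members in B6x129, 9 in B6xCAST, 7 in B6xPWK, 1 in B6xC3H and 0 in B6xSPRET. The B6xSPRET sets covered 35.5 to 78.4 Mb and those of B6x129 54.8 to 128.8 Mb, and the part of set size in these signs was not tested. With this smallest p, at least 688 of the 21495 genes would have to be called together before any could be. These counts therefore do not bound a strain difference at single loci.

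Of the 16 other ETS genes in the annotation, a list chosen with earlier results known, 2 were called higher in B cells by bp covered and 2 lower. Over all genes these shares were 4.9% and 23.4%. Spib, which is largely restricted to lymphoid cells, had 11788 bp in B cells against 3453 bp elsewhere, a ratio of 3.41 (exact permutation test, adjusted p = 0.00825), and Elf4 had a ratio of 1.55. Etv6 and Fev were lower, with ratios of 0.543 and 0.514. In liver 6 of the 16 were higher and 2 lower, against 37.7% and 1.48% of all genes. In kidney 0 were called, against 6.31% of all genes higher and 0.656% lower, and in lung 0, as were 0% of all genes. Per Mb of hotspot sequence, 13 of the 16 were higher in B cells and 0 lower, beside 3 higher and 1 lower among the 10 members. Over all genes these shares were 35.9% and 15.1%.

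Transcript counts were low and are given without a test. The 17 RNA-seq tables held 283725 to 809337 expected counts each, the highest member value was 54 and 54 of 170 values were 0. Ets1 had 27 to 54 expected counts in B cells, 7 to 22 in lung, 1 to 5 in kidney and 0 to 4 in liver, and the kidney and liver ranges overlapped. Elf3, Ehf and Erg had at most 1, 2 and 4 in any library, Etv4 4 to 11 in B cells and at most 3 elsewhere, and Elf5 8 to 20 in lung against 1 to 7 in liver. Fli1 had 18 to 35 in kidney, 2 to 6 in B cells, 0 to 4 in lung and 0 in liver. Values this low are read as counts in these libraries and not as levels of the tissues.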

How the data were processed

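DNase-seq, CTCF ChIP-seq and RNA-seq were analysed. The authors trimmed reads with Trimmomatic, mapped them to mm10 with BWA, pooled libraries by hybrid and tissue, and applied hotspot2 at an FDR of 5%; the deposited score is −log10 of the FDR, capped at 100. The authors counted RNA with STAR and RSEM, and the deposited expected count tables sum to 283725 to 809337 each; the cause of these small sums was not tested. Read totals of the sets, which the study lists, were not used here, and set size in Mb is given in their place.

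Hotspots were clipped to each gene body (GENCODE vM21, GRCm38) plus 20 kb per side. Tissues were compared with an exact two-sided permutation test of the difference of means within hybrids (1024 arrangements, smallest p 0.000977) and hybrids within tissues (625, smallest p 0.0016), with Benjamini-Hochberg adjustment over 21495 genes. At least 420 genes must be called together before a tissue call is possible. On simulated B cell contrasts over 21495 genes, 0 of 200 genes changed 4-fold were recovered, and 60.7% of 2000, with 4.33% of calls false. limma was fitted to log2(bp covered + 200). Alternatives were an FDR of 1%, the 75000 highest-scoring hotspots, gene body only or plus 50 kb, bp as a share of the set, no replicate block, leaving out each hybrid and, added after seeing the data, windows without other coding genes and limma for hybrids.

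The members and all gene lists were chosen with earlier results of these data known. Named genes were the 10 members, the 16 other ETS genes as a list (those called in B cells are given by name, chosen after their values were seen) and, for each member, the 2 most similar genes by Pearson's r over the 20 sets among those with a mean of at least 1000 bp and on another chromosome or over 1 Mb away. Analyses used Python 3.11.15, numpy 2.4.6, scipy 1.17.1, R 4.3.3 and limma 3.58.1. RefSeq promoters matched 6 of the 10 genes.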

Additional observations from a re-analysis of the deposited data

Results flagged for a closer look

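In 80 groups of 5 sets (10 genes, 4 tissues, bp covered and number of hotspots), 1 set stood far from the other 4 by Dixon's ratio in 5 groups, and chance flags about 1 in 20. At Elf3 in B cells, B6xC3H had 307 bp and 1 hotspot, against 644 bp or more and 2 hotspots in each other hybrid. At Ehf in liver, B6x129 had 3527 bp and 12 hotspots, with the next set at 2231 bp and 7 hotspots. At Erg in liver, B6x129 had 12284 bp, with the next at 8106 bp. The B6x129 liver set was also the largest of all sets, at 128.8 Mb, and its part in these values was not tested.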

How the results depend on the processing

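Across 223 alternative values for single members, 165 kept their direction and call, 54 kept only the direction and 4 reversed. Ets1 and Elf3 in B cells and Elf5 in liver kept their bp calls in 13 of 13 alternatives. Numbers of members called follow. In liver (3 by bp, 2 by number of hotspots) the share of the set and limma each gave 5 by bp (limma called 49% of all genes higher and 5.77% lower), and the 75000 highest-scoring hotspots gave 1 by number (13.8% and 8.47% of all genes). In kidney (1 and 0) bp gave 0 with the 75000 highest-scoring hotspots, gene body only, plus 50 kb and no replicate block, and 3 with limma (24.9% and 8.05% of all genes), and the number gave 2 with the 75000 highest-scoring hotspots (Ehf higher, Ets2 lower, against 6.13% and 2.15% of all genes). In lung (0) the share gave 1 (Etv4) and limma 1 (Elf3). In B cells (7 by bp) the share gave 4, and limma 9, against 7.01% of all genes higher and 52.6% lower. Leaving out each hybrid in turn gave 2 to 3 in liver, 0 in kidney and lung and 5 to 6 in B cells by bp, and 1 to 2 in liver and 4 to 6 in B cells by number, while by bp 26.8% to 41.7% of all genes were called higher in liver and 12.5% to 15.01% lower in B cells; with 256 arrangements no gene at all was called in kidney. Each hybrid was present in every tissue, so the main test had the hybrid as a block. With no replicate block, kidney gave 0 and B cells 5 (Ets1 higher, Etv4, Ets2, Elf3 and Gabpa lower, against 4.52% and 25.7% of all genes). Where kidney bp gave 0 with all hybrids kept, 5.63% to 7.70% of all genes were called higher. By number, leaving out each hybrid called 15.8% to 19.7% of all genes higher in liver and 25.5% to 34.2% lower in B cells.

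The 4 reversals were all in B cells. As bp per Mb of hotspot sequence in the set, Ets2 was at +3.32 and Gabpa at +5.12, and the number of hotspots at Erg was +1.6 with the 75000 highest-scoring hotspots and +37.4 as a share of the set's hotspots. Restricted elements, when 4 of 5 hybrids sufficed, numbered 16 for B cells, 15 for lung and 17 for kidney, in place of 9, 7 and 9, which is 2.95%, 2.76% and 3.13% of the elements at the 10 loci against 0.744%, 2.53% and 2.93% of all elements. The cause of these changes was not tested. Pooled sets, 5 hybrids and the score ceiling of 100 limit precision.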

Other observations

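Over the 20 adult sets, the genes whose hotspot sequence was most like that of a member were Trim59 (Pearson r = 0.974) and Fcrls (0.967) for Ets1, Serpina6 (0.991) and Gys2 (0.988) for Elf5, Arfgap3 (0.963) and Svep1 (0.963) for Elf3, and Arhgap27 (0.949) and Sorl1 (0.933) for Fli1. For Gabpa they were Tpx2 (0.968) and Fank1 (0.966), for Etv4 Gdap1l1 (0.969) and Tdrd7 (0.968), for Ehf Msi2 (0.946) and Emsy (0.935), for Erg Dnm1 (0.946) and Smg6 (0.936), for Elf1 Rnf19b (0.929) and Olfr551 (0.927) and for Ets2 Itprid2 (0.910) and Syne1 (0.898). Serpina6, the corticosteroid-binding globulin gene, had a mean of 13082 bp in liver and 1623 bp in kidney. The points share their sets and the size of each set, so these values are descriptions.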
